A study of Rattus norvegicus with 24 samples.

Results

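A set of 9 genes that carry, activate or read out thyroid hormone was followed in 4 tissues of rats labelled SAM-exposed or Sham. They were taken from the deposited count table by symbol, ignoring case, and all 9 were found among its 32883 genes: Ttr, Slco1c1, Dio1, Dio2, Thra, Thrb, Thrsp, Hr and Klf9. The set holds a plasma carrier (Ttr), a membrane transporter (Slco1c1), 2 deiodinases and 2 receptors, and 3 genes (Thrsp, Hr and Klf9) that are known targets of the hormone and not part of its handling. The rats were Sprague-Dawley, aged 7 months, and gave 24 libraries of polyadenylated RNA: for each of liver, brain, thymus and spleen, 3 from SAM-exposed and 3 from Sham animals. The series title names PCB exposure (polychlorinated biphenyls, persistent industrial compounds) while the treatment label reads SAM, so the groups are called SAM and Sham here. The labels give no dose, no duration, no sex and no brain region, and they leave unsaid whether an animal number repeated across tissues means 1 rat. The p-values measure the spread between these libraries.

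Thyroxine travels in blood bound to carrier proteins such as transthyretin, the product of Ttr, which is made in liver and, in the brain, by the choroid plexus. Organic anion transporter Slco1c1 takes thyroxine across the blood-brain barrier. The deiodinases Dio1 and Dio2 remove an iodine atom and turn thyroxine into the active hormone triiodothyronine, which binds the nuclear receptors encoded by Thra and Thrb. Among its target genes are Thrsp, a lipogenic gene of liver and fat, Hr, a receptor corepressor of brain and skin, and Klf9, a transcription factor that glucocorticoids also raise.

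The start regions of the genes differ in base composition, and 4 of them are shown, among them the window with the least GC (Ttr) and the one with the most CG dinucleotides (Thrb). Each is the 250 bases before the RefSeq transcript start in build GRCr8, read 5′ to 3′ on the gene's strand, with CG dinucleotides in capitals.
Ttr (chr18:12218508-12218757, plus strand): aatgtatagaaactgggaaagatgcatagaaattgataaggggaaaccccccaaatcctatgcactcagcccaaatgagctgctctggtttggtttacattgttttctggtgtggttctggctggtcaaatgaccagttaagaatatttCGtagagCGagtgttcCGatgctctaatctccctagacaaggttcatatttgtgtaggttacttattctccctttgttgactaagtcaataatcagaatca
Dio1 (chr5:127319785-127320034, minus strand): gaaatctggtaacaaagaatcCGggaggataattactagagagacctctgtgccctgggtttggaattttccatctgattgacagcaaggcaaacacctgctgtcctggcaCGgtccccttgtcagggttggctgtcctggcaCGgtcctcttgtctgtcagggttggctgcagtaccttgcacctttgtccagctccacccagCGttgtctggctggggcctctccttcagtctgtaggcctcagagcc
Klf9 (chr1:230126396-230126645, plus strand): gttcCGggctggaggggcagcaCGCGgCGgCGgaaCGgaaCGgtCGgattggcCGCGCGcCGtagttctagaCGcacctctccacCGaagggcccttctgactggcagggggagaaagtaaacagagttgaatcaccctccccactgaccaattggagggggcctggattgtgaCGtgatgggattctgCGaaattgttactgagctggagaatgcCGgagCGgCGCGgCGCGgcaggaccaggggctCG
Thrb (chr15:10461447-10461696, minus strand): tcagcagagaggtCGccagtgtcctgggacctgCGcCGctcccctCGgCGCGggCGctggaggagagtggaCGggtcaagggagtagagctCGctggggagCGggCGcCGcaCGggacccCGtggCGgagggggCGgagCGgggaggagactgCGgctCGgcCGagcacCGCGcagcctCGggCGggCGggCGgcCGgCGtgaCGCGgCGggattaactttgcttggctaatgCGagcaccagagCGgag

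The Ttr window had 3 CG dinucleotides and 40.4% GC, the Dio1 window 4 and 55.2%, the Klf9 window 23 and 63.6%, and the Thrb window 33 and 74%. Over all 33465 windows of that length the medians were 5 CG dinucleotides and 51.2% GC. The table matched 7 of the 9 genes with 8 windows. Dio2 had 3 CG dinucleotides and Thrsp 8, while Thra had 30 at one start, where GC was highest of the 8 windows at 79.6%, and 7 at another. So Thra, Thrb and Klf9, the 3 genes that passed the low-count filter in all 4 tissues, had a window rich in CG. The letters AGGTCA, the core motif of receptor binding sites, occurred on either strand in 0 of the 8 windows and in 14.1% of all windows. The repeat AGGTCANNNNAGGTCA, which contains that motif, occurred in 0 of the 8 and in 0.00299% of all. These are matches of letters in a short window only.

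Totals in M (mega) counts per library ranged, for liver, from 13.9 to 18.4, for brain from 12.9 to 19.6, for thymus from 15.5 to 19.6 and for spleen from 13.3 to 20.1. A count of 3, taken as the limit that a count of 0 allows, equals 0.149 to 0.233 CPM (counts-per-million) over these libraries. Several libraries stood apart from their group. Liver SAM 1 spent 17.8% of its counts on mitochondrially encoded genes, and the remaining liver libraries 5.71 to 8.07%. For brain, 7 olfactory bulb markers summed to 549 CPM in SAM 1 and 444 CPM in SAM 2, against 39.4 CPM in SAM 3 and 35.4 to 40.5 CPM in Sham. In thymus, SAM 1 and Sham 15 carried brown fat RNA, with 1319 and 2624 counts of Ucp1 against 0 to 2 in the other 4. Each tissue did carry its own markers: the summed level of 8 hepatocyte genes was 133364 CPM or more in every liver library, that of 4 neuron genes 3726 CPM or more in brain, that of 6 thymocyte genes 6527 CPM or more in thymus, and that of 5 B cell and red pulp genes 2312 CPM or more in spleen.

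Across tissues the genes fell into restricted and broad patterns. Ttr was a liver transcript, with 84471 to 170483 counts in the 6 liver libraries, and had at most 31 counts in any library of another tissue. Dio1 was likewise highest in liver, with 1191 to 2200 counts per library, against 34 to 104 in thymus, 1 to 5 in spleen and 0 to 3 in brain. Spleen and brain overlapped at these few counts. Slco1c1 was counted 1288 to 1961 times per brain library and at most 2 times elsewhere.

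Dio2 followed the order brain, thymus, spleen. It had 70 to 138 counts per brain library, 5 to 42 in thymus and 0 to 3 in spleen, and 0 in all 6 liver libraries. Those ranges do not overlap between brain and thymus or between thymus and spleen. Thrsp had 8443 to 27749 counts per liver library, 195 to 477 in brain, 12 to 14058 in thymus and 0 to 58 in spleen. Its thymus libraries were so spread that in these counts they overlapped with those of liver, brain and spleen.

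The receptors and the remaining targets were counted in all 4 tissues except for Hr in liver, where it had 2 to 10 counts per library. For these the order depends on how liver is scaled. TMM scaling over all 24 libraries multiplied liver CPM by 2.15 to 2.89 and the other tissues by 0.673 to 0.848. Brain had the most Thra under either scale: in Sham libraries 358 ± 28.2 CPM (SD, n = 3) with TMM scaling, against 24.5 ± 0.899 in spleen, 19.2 ± 3.04 in liver and 17.8 ± 1.99 in thymus. Over all 6 libraries a tissue, spleen overlapped with liver and liver with thymus, and with unscaled CPM liver came last, at 8.64 ± 1.68 against 26.1 ± 2.86 in thymus.

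Thrb had higher Sham means in liver and brain than in thymus and spleen, and which of liver and brain came first is set by the scale. The TMM-scaled Sham means were 130 ± 19.6 CPM in liver and 101 ± 13.5 in brain, and the unscaled means 58.2 ± 7.66 and 121 ± 16.5. Thymus followed at 13.4 ± 3.58 TMM-scaled CPM and spleen at 8.40 ± 0.662, and these overlapped over 6 libraries each. Klf9 was at 80.5 ± 2.03 in brain, 79.7 ± 9.81 in liver, 23.2 ± 2.94 in thymus and 19.8 ± 0.493 in spleen. Brain and liver overlapped on that scale, whereas unscaled Klf9 was 96.0 ± 2.38 CPM in brain and 35.6 ± 3.26 in liver. Hr was highest in brain, at 35.5 ± 11.7 CPM, with thymus (12.4 ± 1.28) and spleen (11.8 ± 2.74) overlapping. In bulk tissue, fewer cells of a type and less RNA per cell cannot be told apart.

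**Figure D1:**
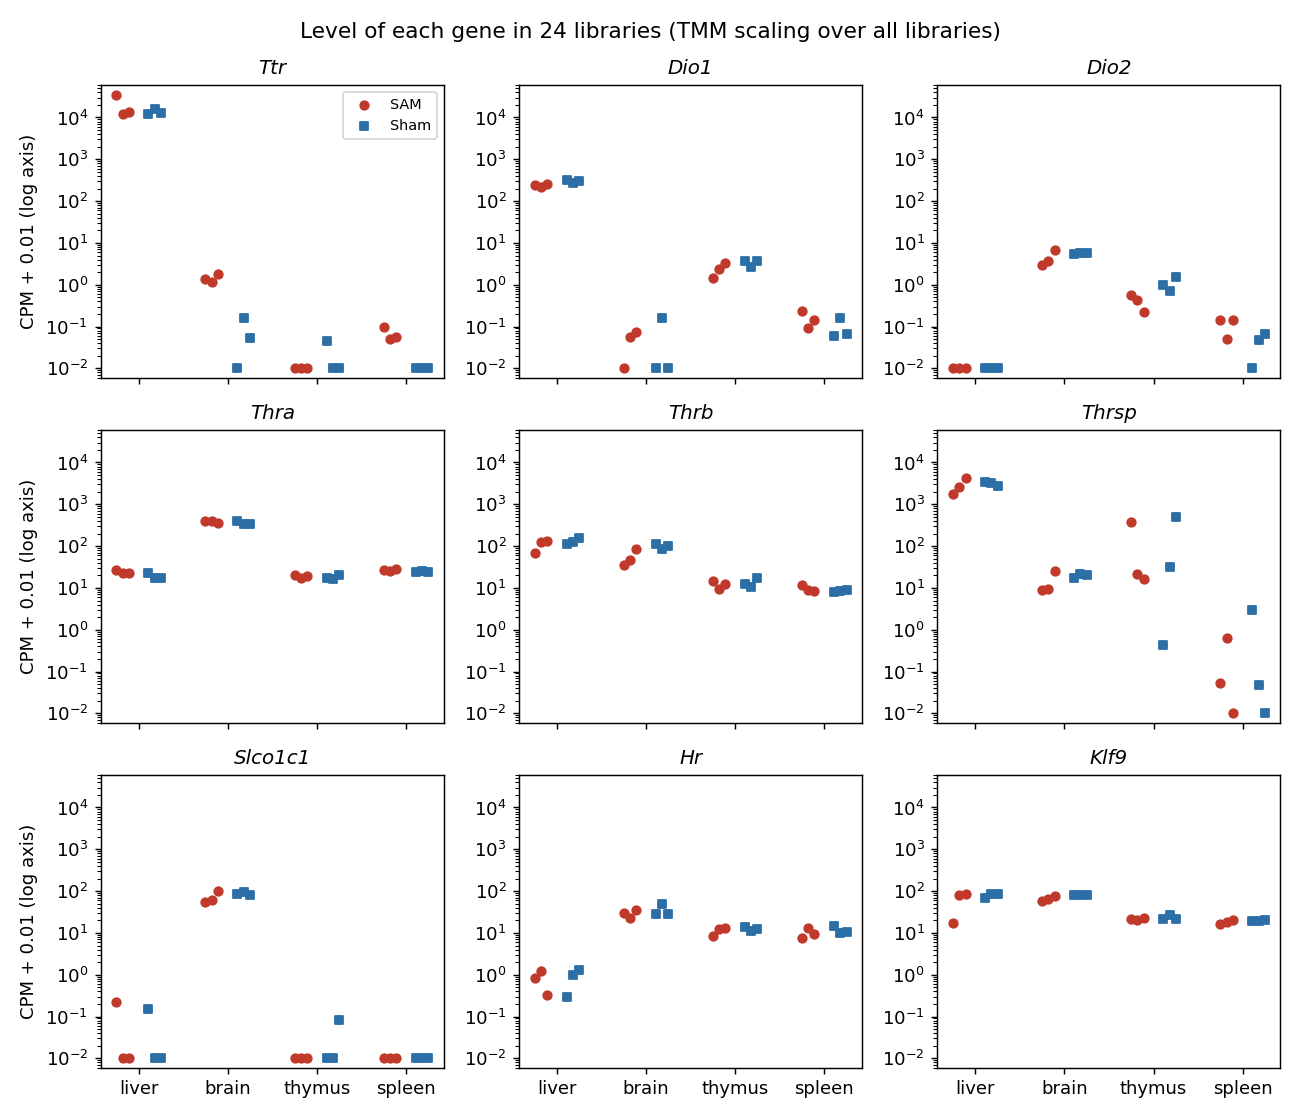
Level of each gene in each of the 24 libraries, as TMM-scaled CPM plus 0.01 on a log axis, with SAM libraries as red circles and Sham libraries as blue squares. Ttr and Dio1 were highest in liver and Slco1c1 in brain, and Thrsp ran from 12 to 14058 counts among the 6 thymus libraries.

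In liver, where most circulating transthyretin is made, 6 of the 9 genes had enough counts to be tested, and 0 passed edgeR's quasi-likelihood test with Benjamini-Hochberg adjustment at 0.05. Over all genes 0% of 12130 passed that test, 2.7% had an unadjusted p below 0.05 (0 of the 6 genes did) and DESeq2 called 0.0165% (0 of the 6). Of the 6, 2 had a positive and 4 a negative log2 fold change (SAM minus Sham), with a median of -0.17 against 0.018 over all genes. Every SAM library lay below every Sham library for 1 of the 6, which 5.63% of all genes showed, and above for 0, which 5.19% showed. CPM from here on, and the marker sums given above, are TMM-scaled within a tissue.

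Dio1 was that gene. It stood at 109, 91.1 and 108 CPM in SAM 1, 2 and 3 and at 139, 114 and 124 CPM in Sham 13, 14 and 15. The groups did not overlap, but the gap between the highest SAM and the lowest Sham library was narrow. The log2 fold change was -0.29 ± 0.15 (SE), with an unadjusted p of 0.0964 and an adjusted p of 0.802, and it stayed between -0.21 and -0.36 when single libraries were left out or other settings used.

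Ttr, by contrast, was set apart by 1 library. SAM 1 had 15582 CPM, while SAM 2 and 3 had 5179 and 5629 CPM and the Sham libraries 5341, 6715 and 5313 CPM. The log2 fold change of 0.60 ± 0.42 (adjusted p = 0.802) became -0.098 without SAM 1, the library with 17.8% mitochondrial counts. The same library was the lowest for the receptor Thrb, at 29.9 CPM against 49.9 to 64.1 in the other 5, and for Klf9, at 7.40 CPM against 29.8 to 36.0. Without it the log2 fold change of Klf9 moved from -0.38 ± 0.49 to 0.053, and that of Thrb from -0.25 ± 0.26 to -0.011. The part of RNA quality in these values was not tested.

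Thrsp, the lipogenic target, spread widely within SAM, at 772, 1094 and 1847 CPM against 1451, 1375 and 1140 CPM in Sham. Its groups overlapped, with a log2 fold change of -0.095 ± 0.31. Thra was at 11.7, 9.43 and 9.52 CPM in SAM and 9.93, 7.33 and 7.31 CPM in Sham, a log2 fold change of 0.32 ± 0.20. Both had an adjusted p of at least 0.802. Hr (16 counts in SAM and 19 in Sham over 3 libraries each), Slco1c1 (1 and 1) and Dio2 (0 and 0) were too low to test. Blood genes moved with the group in liver, summing to 476 to 1123 CPM in SAM and 336 to 432 CPM in Sham, and their part in the values above was not tested.

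**Figure D2:**
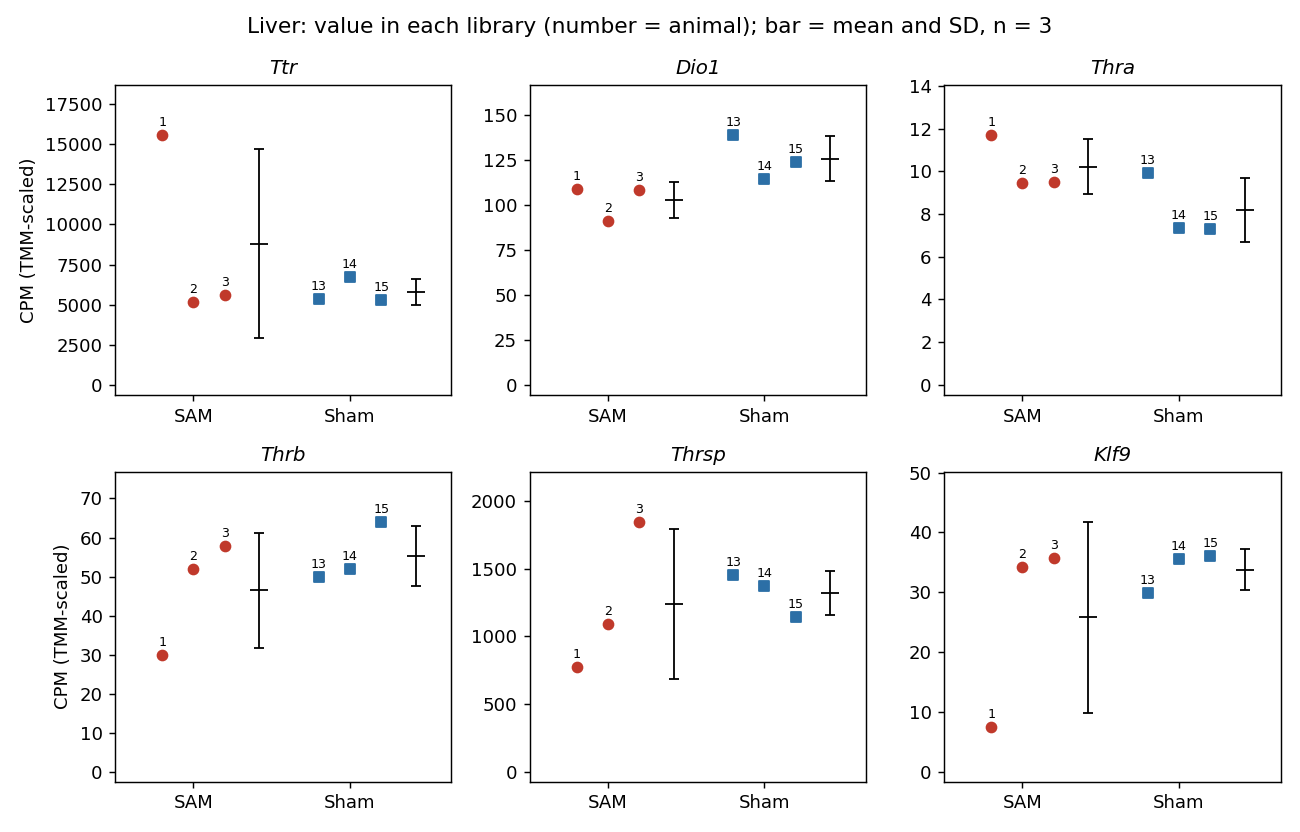
CPM (TMM-scaled) of the 6 genes tested in liver, 1 point per library labelled by animal number, with mean and SD (n = 3) beside each group. SAM 1 is the highest of 6 libraries for Ttr (15582 CPM) and the lowest for Thrb and Klf9, and all 3 SAM libraries lie below the Sham libraries for Dio1.

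In brain, 8 of the 9 genes were tested and 0 passed the edgeR test after Benjamini-Hochberg adjustment, as for 0% of all 15126 genes. An unadjusted p below 0.05 was found for 2 of the 8 (Ttr and Thrb) and for 20.5% of all genes. Ttr passed the low-count filter only through the SAM libraries, which limits its p-value. DESeq2 called 0 of the 8 (Ttr was given no adjusted p) and 3.33% of all. The 2 positive and 6 negative log2 fold changes had a median of -0.25, against 0.011 over all genes. Ttr was higher in every SAM than in every Sham library, as were 11.6% of all genes, and Thrb was lower, as were 12.2%.

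Ttr gave few counts, but they were split by group. It had 31, 24 and 27 counts in SAM 1, 2 and 3 and 0, 3 and 1 counts in Sham 13, 15 and 16. All 3 SAM libraries were alike here, SAM 3 included, at 1.69, 1.43 and 2.19 CPM. Summed, the 82 counts against 4 give a ratio of 24.4 per total count, with an exact 95% interval of 9.17 to 91.6 that covers counting error only. The edgeR log2 fold change was 4.42 ± 0.62, with an unadjusted p of 0.0002 and an adjusted p of 0.221, and it lay between 3.88 and 5.69 when single libraries were left out. DESeq2 gave a log2 fold change of 4.55. In the fits of brain alone, Ttr passed the low-count filter only through the SAM libraries, where it was high, and its p-values there carry that limit. Ttr passed in 1 fit over all 24 libraries (log2 fold change 4.37, adjusted p = 0.00735), in which 3.29% of genes were called, and when SAM 3 was left out (4.26, adjusted p = 0.00115), when 38.1% were. With SAM 1 and SAM 2 left out it was 4.74, with an adjusted p of 0.395.

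The choroid plexus is the known source of transthyretin in brain, and 11 of its marker genes were looked at beside Ttr. Of these, 4 passed the low-count filter and 0 passed the adjusted test. Of the 4, 3 had an unadjusted p below 0.05 in the edgeR test, as had 20.5% of all genes tested in brain. Their log2 fold changes were 3 positive and 1 negative, with a median of 1.08 against 0.011 over all genes. Every SAM library was higher for 1 of the 4 (11.6% of all genes) and lower for 1 (12.2%). The summed level of all 11 was 111 to 113 CPM in SAM and 115 to 125 CPM in Sham, most of it Enpp2, which other brain cells also express and which was lower in every SAM library. Without Enpp2, a step that was not planned, the order turned. The other 10 genes summed to 19.1, 21.1 and 11.9 CPM in SAM 1, 2 and 3 and 4.52, 4.79 and 10.4 CPM in Sham 13, 15 and 16. Every SAM library was then higher, with Aqp1 as the largest part of the SAM sums. The water channel gene Aqp1 was higher in each SAM library, at 9.84, 10.5 and 6.48 CPM against 2.40, 1.45 and 5.41 CPM, as were, at 46 counts or fewer per library, Clic6 and Prlr. Cldn2, a tight junction gene, had 3, 7 and 12 counts in SAM and 1, 2 and 10 in Sham. The channel gene Kcnj13 was at 3.37, 5.65 and 2.75 CPM in SAM and 0.837, 1.70 and 2.83 CPM in Sham, and Kl, the klotho gene, at 1.14, 1.55 and 0.324 CPM against 0.391, 0.667 and 0.464 CPM, so both overlapped at SAM 3. Sostdc1 had 24, 8 and 0 counts in SAM and 1, 0 and 2 in Sham, and Slc4a5 had 6, 11 and 8 against 8, 6 and 10, so these overlapped too. The transcription factor Otx2 had 0 counts in every brain library and the folate receptor gene Folr1 had 0 to 4.

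Markers of other tissues were read in the same libraries. Meningeal markers followed the group as a sum: 6 genes summed to 109, 89.6 and 81.7 CPM in SAM and 32.8, 38.1 and 55.4 CPM in Sham. Of the 5 tested, 3 were higher in every SAM library, as were 11.6% of all genes tested in brain. Lum, Foxc1 and Ogn overlapped between the groups. The 8 hepatocyte markers summed to 11.6, 13.1 and 20.5 CPM in SAM and 19.7, 16.7 and 14.7 CPM in Sham, with overlap. Most of that was albumin, as Alb had 128, 145 and 182 counts in SAM and 255, 186 and 204 in Sham. Serpina1 leaned the other way, with 48, 35 and 18 counts against 26, 30 and 21, as did Apoa1, with 14, 15 and 2 against 7, 2 and 7. Ahsg and Tat had 0 counts in all 6 libraries. The part of choroid plexus, meninges or other tissue in the Ttr counts was not tested.

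Thrb, which encodes the receptor of the hormone's feedback and hearing functions, was the lowest relative to Sham among the tested genes. It stood at 43.9, 58.8 and 106 CPM in SAM 1, 2 and 3 and at 139, 107 and 124 CPM in Sham 13, 15 and 16. SAM 3 lay just below the lowest Sham library, and the difference came mainly from SAM 1 and 2. The log2 fold change was -0.83 ± 0.31 (unadjusted p = 0.0340, adjusted p = 0.228). It was -0.22 without SAM 1 and 2 and -1.27 without SAM 3 (adjusted p = 0.000369).

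In 3 further genes the SAM libraries fell on both sides of Sham. Dio2, which supplies active hormone within the brain, was at 3.80, 4.64 and 8.26 CPM in SAM 1, 2 and 3 and at 6.48, 7.09 and 7.11 CPM in Sham. Slco1c1 was at 70.8, 76.6 and 128 CPM in SAM and 103, 119 and 98.2 CPM in Sham. Thrsp was at 11.3, 11.6 and 31.8 CPM in SAM and 21.0, 25.9 and 24.6 CPM in Sham. In each of these 3 genes SAM 1 and 2 were the lowest libraries and SAM 3 the highest of all 6. Their log2 fold changes were -0.32 ± 0.29, -0.22 ± 0.23 and -0.40 ± 0.41, and with SAM 1 and 2 left out they turned to 0.26, 0.26 and 0.42.

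Klf9 was at 71.6, 80.5 and 95.6 CPM in SAM against 95.5, 101 and 98.1 CPM in Sham, a log2 fold change of -0.25 ± 0.11 with an adjusted p of 0.263. Here too SAM 1 and 2 were the lowest, while SAM 3 matched Sham 13. Thra was at 509, 505 and 445 CPM in SAM and 474, 414 and 420 CPM in Sham, a log2 fold change of 0.16 ± 0.10. Hr overlapped fully, at 36.9, 28.5 and 44.0 CPM against 34.7, 60.1 and 35.2 CPM in Sham 13, 15 and 16, and its log2 fold change of -0.25 was 0.063 without Sham 15. Dio1 had 2 counts in SAM and 3 in Sham in all and was not tested. With SAM 3 left out, 6 of the 8 genes passed the adjusted edgeR test (Ttr, Dio2, Thrb, Thrsp, Slco1c1 and Klf9), where 38.1% of all 15493 genes did. For Ttr the limit of the low-count filter given above holds here too.

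Region markers split the brain libraries in the same way. Forebrain excitatory neuron markers, 7 genes, summed to 847 and 986 CPM in SAM 1 and 2, against 1714 CPM in SAM 3 and 1813 to 1934 CPM in Sham. Hypothalamic markers, 8 genes, summed to 70.3 and 43.5 CPM in SAM 1 and 2, against 7.86 CPM in SAM 3 and 5.33 to 7.09 CPM in Sham. Most of the sum in SAM 1 and 2 was a single gene, Trh, at 58.8 and 30.9 CPM. Trh was at 2.27 CPM in SAM 3 and 0.242 to 1.34 CPM in Sham. Brain endothelium markers, 5 genes found, summed to 340 and 363 CPM in SAM 1 and 2, 573 CPM in SAM 3 and 394 to 455 CPM in Sham, and ordered the 6 libraries as Slco1c1 did. The part of these region differences in the values of the 8 genes was not tested.

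**Figure D3:**
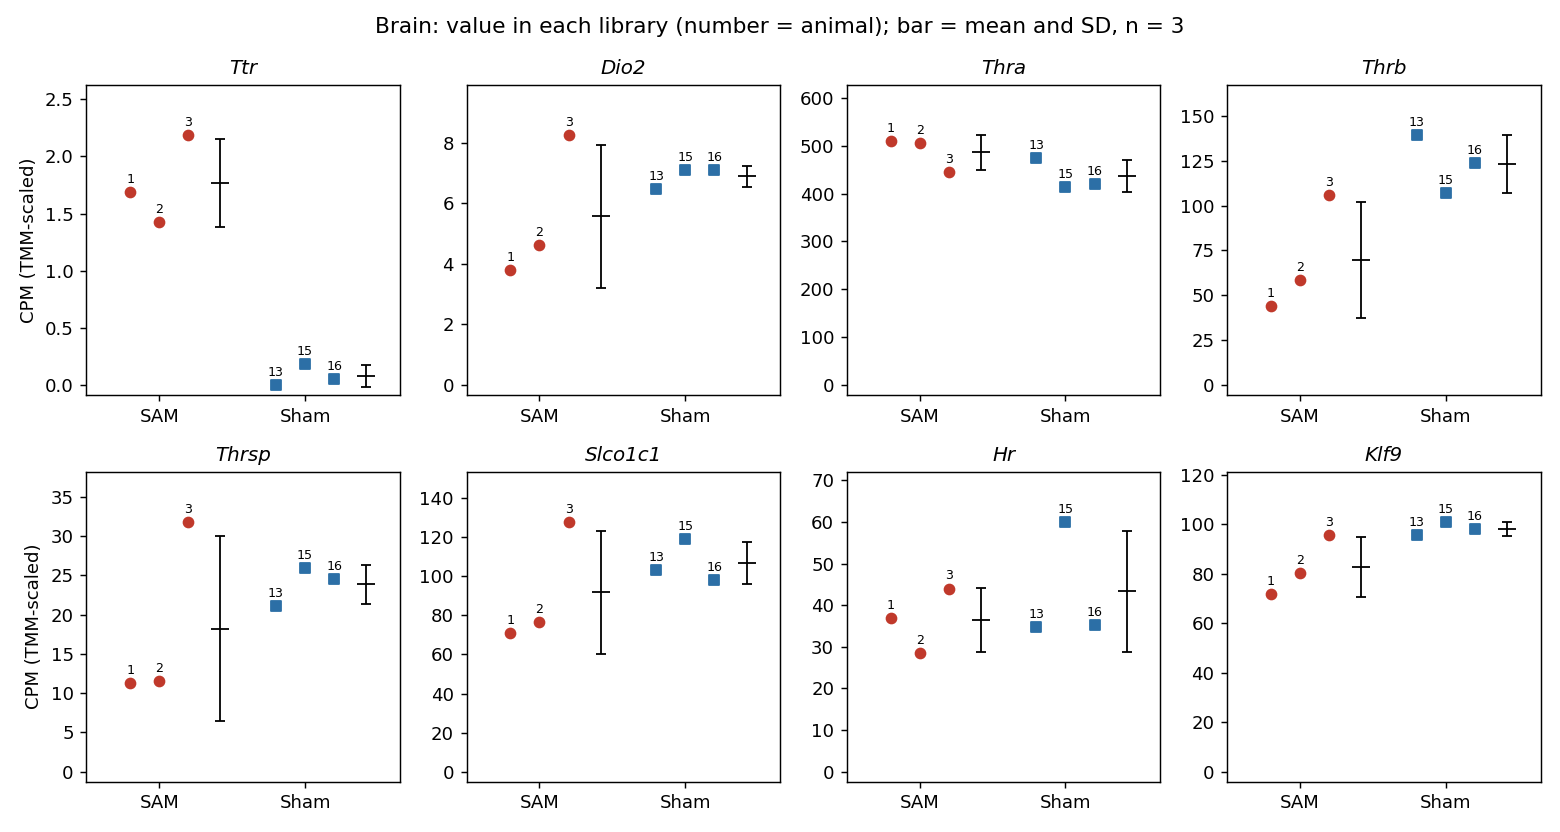
CPM (TMM-scaled) of the 8 genes tested in brain, 1 point per library labelled by animal number, with mean and SD (n = 3) beside each group. Ttr separates all 3 SAM libraries from Sham, while for Dio2, Thrsp and Slco1c1 SAM 1 and 2 are the lowest of 6 and SAM 3 the highest.

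In thymus, 7 of the 9 genes were tested and 0 passed the adjusted edgeR test, as for 0% of all 15036 genes. Of the 7, 1 had an unadjusted p below 0.05 (6.13% of all genes did), 0 were called by DESeq2 (0.665% of all), 1 was lower in every SAM library (6.96% of all) and 0 higher (4.97%). The log2 fold changes were 1 positive and 6 negative, with a median of -0.16 against -0.0014 over all genes.

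Dio2 was the gene that separated the groups. It had 13, 11 and 5 counts in SAM 1, 3 and 5 and 27, 20 and 42 counts in Sham 17, 14 and 15. Every SAM library was lower, at 0.578 ± 0.245 CPM against 1.55 ± 0.642 (SD, n = 3). Dio2 passed the low-count filter in thymus through the Sham libraries, where it was higher. The log2 fold change was -1.40 ± 0.43, with an unadjusted p of 0.0130 and an adjusted p of 0.651. Over the alternatives tried it ran from -1.69 to -1.04. Dio2 is also a gene of brown fat. Its counts were 42 in Sham 15 and 13 in SAM 1, the libraries with 2624 and 1319 counts of the brown fat gene Ucp1. With both left out, the log2 fold change was -1.32. The part of brown fat in the Dio2 counts was not tested. Dio1 leaned the same way with overlap, at 2.10, 3.53 and 4.87 CPM in SAM and 5.29, 3.75 and 5.49 CPM in Sham, a log2 fold change of -0.47 ± 0.31 (adjusted p = 0.907).

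Thrsp in thymus varied with fat genes across both groups. It had 8878 counts in SAM 1 and 14058 in Sham 15, 387 to 898 in SAM 3, SAM 5 and Sham 14, and 12 in Sham 17. The adipocyte hormone gene Adipoq had 1888 and 2869 counts in the first pair, 418 to 651 in the next 3 libraries, and 53 in Sham 17. Both genes thus ordered the libraries in the same 3 tiers. Adipocyte markers, 7 genes, summed to 165 to 773 CPM in SAM and 75.4 to 1126 CPM in Sham. The part of fat in the Thrsp counts was not tested. The log2 fold change, -0.41 ± 1.78, was -3.25 without SAM 1 and 3.12 without Sham 15. Sham 15 also held 881 counts of the parathyroid gene Pth, against 0 to 6 elsewhere.

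The receptors and other targets differed little in thymus. The SAM and Sham means of Thra were 27.4 ± 1.88 and 26.1 ± 3.59 CPM, and those of Thrb 17.6 ± 3.76 and 19.7 ± 5.81 CPM. Hr was at 16.8 ± 3.62 and 18.2 ± 1.96 CPM, and Klf9 at 31.5 ± 1.33 and 34.1 ± 3.96 (SD, n = 3 each). All 4 overlapped between the groups and had an adjusted p of 0.941 or more. Ttr (0 counts in SAM, 1 in Sham) and Slco1c1 (0 and 2) were not tested.

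In spleen, 4 of the 9 genes were tested and 0 passed, as for 0% of all 14530 genes. None of the 4 had an unadjusted p below 0.05, which 4.11% of all genes had, and DESeq2 called 0 of the 4 and 0.0482% of all. The log2 fold changes were 2 positive and 2 negative, with a median of 0.010 against 0.0028 over all genes. Thra was higher in every SAM library, as were 4.47% of all genes, and 0 of the 4 were lower in every one, as were 4.74%.

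Thra stood at 34.8, 34.0 and 35.7 CPM in SAM 1, 3 and 5 and at 30.9, 33.0 and 31.6 CPM in Sham 14, 15 and 17. The shift was small, a log2 fold change of 0.13 ± 0.07 with an adjusted p of 0.967, and it stayed between 0.11 and 0.16 under the alternatives. The SAM and Sham means were 12.5 ± 2.40 and 10.9 ± 0.860 CPM for Thrb. Hr was at 12.9 ± 3.74 and 15.3 ± 3.60, and Klf9 at 23.8 ± 2.17 and 25.7 ± 0.661 CPM. These 3 overlapped between groups.

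The 5 untested genes were near 0 in spleen. Ttr had 2, 1 and 1 counts in SAM and 0 in each Sham library, all under the limit of 3 counts. Dio1 had 10 counts in SAM and 6 in Sham in all, Dio2 had 7 and 2, and Slco1c1 had 0 in all 6 libraries. Thrsp again varied with Adipoq: its 58 counts in Sham 14 and 15 in SAM 3 were found in the libraries with 154 and 25 counts of Adipoq, and the other 4 had 0 to 1 counts of each gene.

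**Figure D4:**
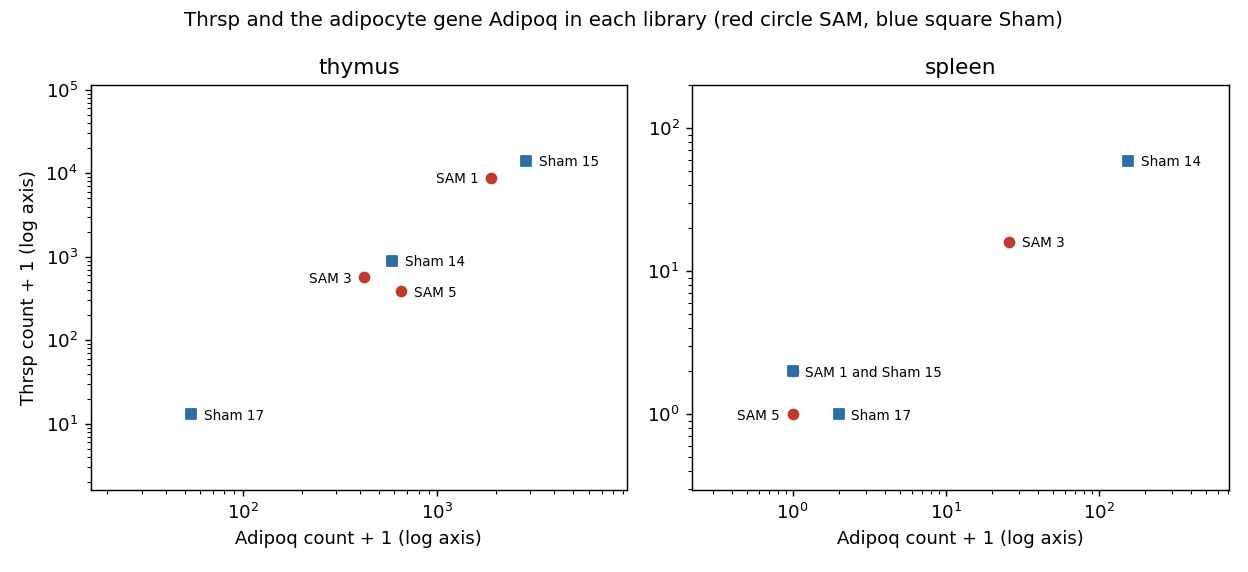
Counts plus 1 of Thrsp against the adipocyte gene Adipoq in the 6 thymus and 6 spleen libraries, both axes logarithmic, with SAM as red circles and Sham as blue squares. In thymus SAM 1 and Sham 15 are highest for both genes, and in spleen Sham 14 and SAM 3 are.

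Whether the difference between SAM and Sham varied between tissues was tested for each gene by the tissue-by-exposure terms of an edgeR model of all 24 libraries. Of all 17623 genes, 0.0113% passed after Benjamini-Hochberg adjustment, and 0 of the 9 did. Ttr had the lowest p, 0.00328, with an adjusted p of 0.261, and it ranged from 0.00539 with DESeq2 to 1 over the alternatives. Dio2 (adjusted p = 0.563) and Thrb (0.600) followed, and for Thrb it was 0.0496 in the lowest of 29 alternatives, which left out brain SAM 3. Both the DESeq2 fit and the fit without brain SAM 3 called many more genes than the main interaction fit, as given in the closing section. For the other 6 genes the adjusted p was at least 0.881 in the main interaction fit.

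**Figure D5:**
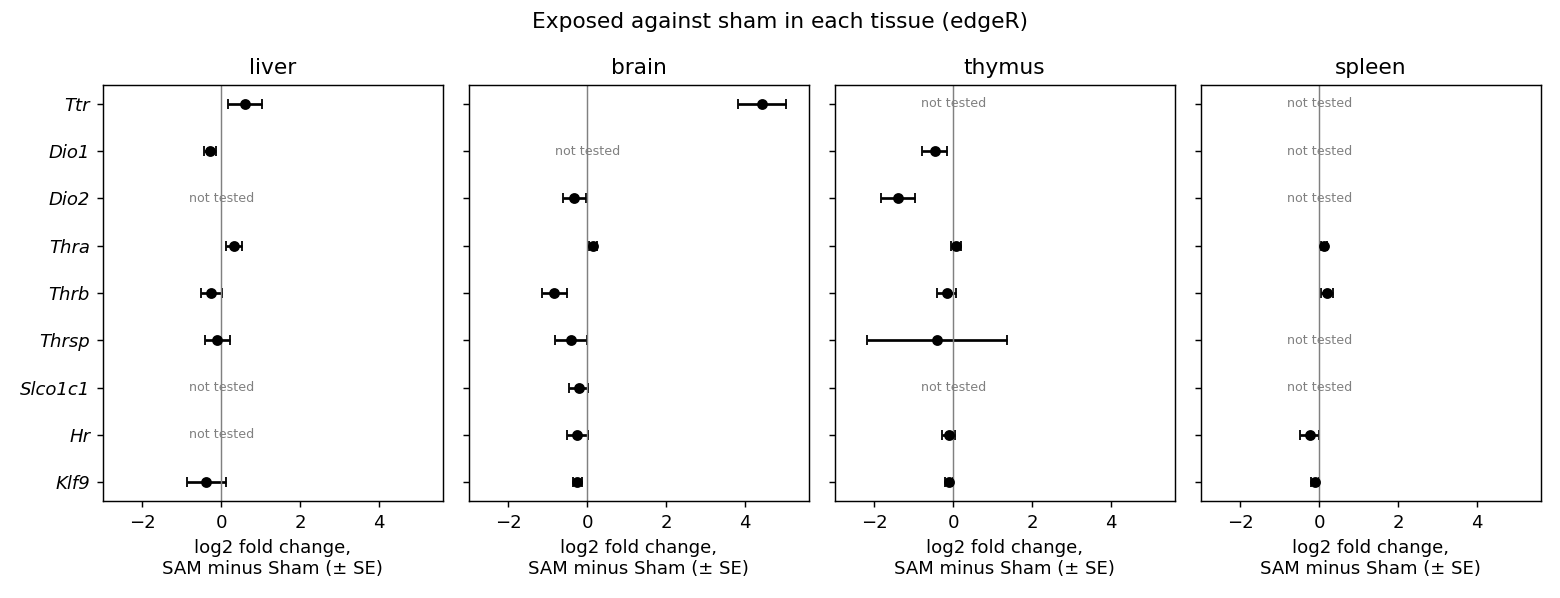
Log2 fold change of each gene (SAM minus Sham) with its SE from edgeR in the 4 tissues, with genes below the count filter marked as not tested. Brain Ttr (4.42 ± 0.62) lies above 0 and thymus Dio2 (-1.40 ± 0.43) below it. Ttr passed the count filter only through the SAM libraries and Dio2 through the Sham libraries, which limits both values. Thymus Thrsp has the widest SE (1.78).

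The wider pathway was read from a list of 65 other genes for binding, transport, inactivation, receptor partners, coregulators, target genes and central control, of which 59 were found. In each tissue 0 of those tested passed the adjusted edgeR test. An unadjusted p below 0.05 was found for 2 of 44 in liver (2.7% of all genes), 9 of 42 in brain (20.5%), 4 of 44 in thymus (6.13%) and 4 of 38 in spleen (4.11%). DESeq2 called 0 in liver (0.0165% of all genes), 3 in brain (Ncoa3, Itga7 and Trh, against 3.33%), 1 in thymus (Reln, against 0.665%) and 0 in spleen (0.0482%). The median log2 fold change was -0.13 for liver, -0.0028 for brain, -0.018 for thymus and 0.063 for spleen, against 0.018, 0.011, -0.0014 and 0.0028 over all genes. In liver 0 of the 44 were higher in every SAM library (5.19% of all genes) and 3 lower (5.63%). In brain 5 of the 42 were higher (11.6%) and 2 lower (12.2%), in thymus 2 of the 44 higher (4.97%) and 4 lower (6.96%), and in spleen 7 of the 38 higher (4.47%) and 0 lower (4.74%).

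Among membrane transporters, the aromatic amino acid transporter Slc16a10, which also moves thyroid hormone, had a log2 fold change of 0.51 ± 0.22 in spleen with overlap. Crym, which binds triiodothyronine in the cytosol, was at 87.9, 106 and 82.6 CPM in SAM brain and 181, 99.6 and 176 CPM in Sham, a log2 fold change of -0.72 ± 0.24 with overlap at Sham 15.

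Dio3, the deiodinase that inactivates the hormone, was low everywhere. In thymus, the tissue in which it was tested, it had 5, 8 and 9 counts in SAM and 16, 22 and 14 in Sham. Every SAM library was lower, as for Dio2 and for 6.96% of all genes tested there (log2 fold change of Dio3 -1.01 ± 0.35, adjusted p = 0.736). Dio3 passed the low-count filter through the Sham libraries, where it was higher. It had 29 counts in the 3 SAM brain libraries and 30 in Sham.

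Of the central control genes, Trh, which encodes thyrotropin-releasing hormone, had 1082, 519 and 28 counts in SAM brain and 17, 4 and 26 in Sham. The first 2 of these libraries are those with high olfactory bulb markers, and the hypothalamic sum that also set them apart holds Trh itself. SAM 3, at 2.27 CPM, lay nearer the highest Sham library, at 1.34 CPM, than the other SAM libraries, at 58.8 and 30.9 CPM. The log2 fold change of Trh was 5.15 ± 1.18 (adjusted p = 0.221). Its receptor gene Trhr had 90, 96 and 15 counts in SAM and 18, 19 and 25 in Sham. In CPM SAM 3, at 1.22, lay between Sham 15, at 1.15, and Sham 16, at 1.29, and SAM 1 and 2 were at 4.89 and 5.71. Trhde, whose enzyme degrades the same peptide, had a log2 fold change of -0.15 ± 0.19 in brain. In liver Trhde was lower in every SAM library, at 5.12, 6.91 and 6.59 CPM against 9.67, 7.07 and 8.34 CPM. So were 5.63% of all genes tested in liver, and the unadjusted p of Trhde there was not below 0.05 in the edgeR test.

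Among receptor partners and coregulators, the coactivator gene Ncoa3 had a log2 fold change of 0.42 ± 0.10 in brain, Med1 0.23 ± 0.09 and the corepressor gene Ncor1 0.16 ± 0.06 in spleen, and the partner receptor Rxra -0.26 ± 0.08 in thymus. In all 4 the unadjusted p was below 0.05 and the groups did not overlap. In brain Rxrb, named after its values were seen, also had such a p, with a log2 fold change of 0.23 ± 0.10 and no overlap. Over all genes 11.6% were higher and 12.2% lower in every SAM library in brain, 4.47% higher in spleen and 6.96% lower in thymus. The 9 coregulators tested in brain had 3 positive and 6 negative log2 fold changes, with a median of -0.017. Of these 9, 1 was higher and 1 lower in every SAM library. In spleen 6 were positive and 3 negative. Hormone target genes with an unadjusted p below 0.05 lay on both sides of 0. G6pc, which releases glucose from liver, was at 176, 167 and 237 CPM in SAM and 260, 334 and 284 CPM in Sham (log2 fold change -0.60 ± 0.19, adjusted p = 0.802), and Bcl3 had 0.74 ± 0.28 in liver. Among genes known as targets in brain, Mbp had 0.36 ± 0.09 in spleen, and Reln -1.09 ± 0.28 and Rasd2 -0.69 ± 0.24 in thymus. In brain itself 9 of them were tested, with 4 positive and 5 negative log2 fold changes and a median of -0.33. Itga7 had 0.78 ± 0.18 and was higher in every SAM library, as were 11.6% of all genes tested in brain. Mbp, the myelin gene that gave most of the list's counts, had -0.33 ± 0.15 and was lower in every one, as were 12.2%. Itga7 and Aldh1a3, the latter at 1.46 ± 0.55 with overlap, had an unadjusted p below 0.05 in the edgeR test. That is 2 of the 9, against 20.5% of all genes tested in brain. The summed level of the list was 3518 to 4542 CPM in SAM and 4710 to 6170 CPM in Sham.

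Klf9 is also raised by glucocorticoids, so 7 glucocorticoid-responsive genes were read beside it. Tsc22d3 had a log2 fold change of -0.53 ± 0.21 in thymus and -0.56 ± 0.16 in spleen, and Mt2A 1.04 ± 0.32 in brain. Pdk4 was at 2.37 ± 0.358 CPM in SAM spleen and 4.77 ± 1.60 in Sham. Of the 7 genes, 0 passed after adjustment in any tissue. In the edgeR test, 0 had an unadjusted p below 0.05 in liver (2.7% of all genes) and 2 in brain (20.5%). In thymus 1 had such a p (6.13%) and in spleen 2 (4.11%). Their log2 fold changes were 4 positive and 3 negative in liver, 3 and 4 in brain, and 1 and 6 in both thymus and spleen. In brain the median was -0.19, and the 7 genes summed to 282 to 342 CPM in SAM and 289 to 345 CPM in Sham. Klf9 itself was at -0.11 in both thymus and spleen.

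The genes most like each one over the 24 libraries, by Pearson correlation of log2 CPM among 15226 genes, mostly marked the same tissue. For Ttr they were Abhd14b (r = 0.99), Serpind1 and Pecr, for Dio1 Amdhd1 and Oaf, and for Slco1c1 Fmn2, Lgi2 and Luzp2. Thra was closest to Rab3a, Cyp46a1 and Nsf, Dio2 to Plcd4, Camkv and Nlgn1, and Thrb to Ociad1, Opa1 and Mapk9. Thrsp was closest to Mlxipl (r = 0.95), Acss3 and Cdo1, Hr to 2 genes named Pkm and to Ndrg1, and Klf9 to Sec23a, Secisbp2l and Ccdc47. The points share tissue and library, so these values describe the tissue pattern only.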

How the data were processed

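The measurements are raw counts of reads per gene, which the authors deposited as 1 table. Per the labels' protocols, libraries came from a stranded messenger RNA kit. STAR 2.2.1 and build rn6 were used, per the submitters' processing notes. The annotation, counting program and strand setting were not given in the sources used here. Reads of Thra and of the overlapping antisense gene Nr1d1 may therefore be mixed, and Thra values are uncertain to that extent.

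SAM was compared with Sham within each tissue (edgeR 4.0.16, R 4.3.3): filterByExpr, TMM scaling, the quasi-likelihood test and Benjamini-Hochberg adjustment over all genes tested, at 0.05. The interaction fit used all 24 libraries. DESeq2 1.42.0, RLE scaling, no filter, 1 fit over 24 libraries, each library left out and pairs of libraries left out were the alternatives. The fits were tested on simulated data first. Genes and lists were chosen with earlier results of these data known. Named pathway genes are up to 6 per tissue with an unadjusted p below 0.05 and a mean of at least 1 CPM, by lowest p, plus Trh, Trhde, Dio3 and Crym. Some genes that these rules name are not reported here. A chi-square per degree of freedom of 5.95 to 193 between replicates of a group left none as a copy of another. Promoter windows are from RefSeq.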

Additional observations from a re-analysis of the deposited data

How the results depend on the processing

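Over 265 refits of the 25 log2 fold changes tested, 242 kept their direction and their side of the threshold, 7 newly passed it and 16 changed sign. The number of genes called in liver was 0, and 2 with DESeq2, 1 with RLE scaling, 1 without the filter, 3 in the fit over 24 libraries and 0 to 1 with a library left out. In brain it was 0, and 503 with DESeq2, 579 in the fit over 24 libraries, 0 to 5896 with a library left out (5896 without SAM 3) and 1 without SAM 1 and 2. In thymus it was 0, and 100 with DESeq2, 3 without the filter and 3 over 24 libraries. In spleen it was 0, and 7 with DESeq2 and 0 to 1 with a library left out. The interaction called 2 genes, and 15 without the filter, 330 with DESeq2, 1 without brain SAM 1 and 2, and 1 to 990 with a library left out (990 without brain SAM 3, 68 without liver SAM 2, 11 without brain Sham 16, 5 without liver SAM 1). The causes were not tested.

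With a library left out, log2 fold changes ran from -0.098 to 0.87 for Ttr, -0.50 to 0.15 for Thrsp and -0.68 to 0.053 for Klf9 in liver, from -0.40 to 0.063 for Hr in brain, and in thymus from -0.24 to 0.048 for Hr, -3.25 to 3.12 for Thrsp, -0.0098 to 0.18 for Thra and -0.33 to 0.088 for Thrb. Without brain SAM 1 and 2, Dio2 was at 0.26, Thrsp at 0.42, Slco1c1 at 0.26 and Hr at 0.027. Without thymus SAM 1 and Sham 15, chosen after seeing the data, Thrsp was at 0.29 and Hr at 0.084. With unscaled CPM, also chosen afterwards, the log2 ratio of Sham means turned from 0.11 to -1.59 for Thra in liver over thymus and from 0.37 to -1.05 for Thrb in liver over brain.

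The 25 pairs of libraries with the same animal number across tissues had a median correlation of deviations of 0.036. They ranged from -0.010 to 0.165 (2 over 0.1). The 83 other pairs had a median of -0.015 and ranged from -0.224 to 0.117 (1 over 0.1). Whether a repeated animal number means 1 rat was not tested, and the main fits did not pair the libraries. With the number as a replicate block, the interaction called 3 genes. A log2 fold change is not given where a gene is at a few counts, since depth limits it.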
